A study of Danio rerio with 33 samples.

Results

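Zebrafish embryos injected with AP2-P59 and kctd15 together were set against embryos injected with kctd15 alone, to ask whether AP2-P59 brings back the genes that kctd15 lowers. The members are the 3 libraries whose labels name both injections and the 3 libraries whose labels name kctd15 only, which are 6 of the 33 libraries of the series. Each library holds polyadenylated RNA of wild-type embryos at the 10-somite stage. The co-injected embryos received 5 pg AP2-P59 with 100 pg kctd15, and the comparison embryos received 100 pg kctd15. A further 4 groups of 3 libraries, of the same genotype and stage, give the surrounding values: 5 pg AP2-P59, 5 pg AP2 with 100 pg kctd15, 5 pg AP2, and wild type with no injection named. Which AP2 paralog was used, whether RNA or DNA was injected, and how many embryos were pooled are not given in the sources used here. No control injection is named, and the co-injected embryos received the larger total amount.

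Kctd15 is a BTB-domain protein that inhibits formation of the neural crest, the population at the neural plate border that yields pigment cells, peripheral neurons and glia, and facial skeleton. It also binds AP2 through the part of that factor that activates transcription, and AP2 itself is needed by both neural crest and epidermis. Earlier work described a proline in this activation domain whose replacement leaves AP2 active and insensitive to Kctd15. The labels do not say what change AP2-P59 carries.

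Co-injected libraries held 15732966 to 15966593 estimated counts and kctd15 libraries 16666107 to 19508972. Markers of the main embryonic tissues were present in all 6 libraries: crestin (neural crest) at 50.1 to 88.7 CPM (counts scaled to the size of the library), krt4 (skin) at 4820 to 6380 CPM, myod1 (muscle) at 51.3 to 89.2 CPM and tal1 (blood) at 41.9 to 70.7 CPM. Levels are CPM after TMM scaling, a correction for the composition of each library. In whole-embryo RNA, fewer cells of a type and less RNA per cell cannot be told apart.

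The kctd15a transcript NM_001006012 marked the injection in all but 1 of the 6 libraries. It had 0, 171 and 473 estimated counts in the libraries labelled AP2-P59 + kctd15 replicates 1 to 3, against 495, 201 and 302 in kctd15 libraries. It had 0, 17 and 0 estimated counts after AP2-P59 alone and 34, 0 and 0 in wild type. On NM_001006012 the library labelled AP2-P59 + kctd15 replicate 1 thus sat with the groups that received no kctd15, which goes against its label. The main results are also given without that library. A second kctd15a transcript, XM_005163052, had 320, 189 and 316 estimated counts in co-injected libraries, 203, 377 and 156 in kctd15 libraries and 472, 582 and 343 in wild type. As estimated counts, not scaled for depth, all co-injected libraries lay below all wild-type libraries on this transcript. They also lay below all libraries of AP2-P59 alone (412, 480 and 391) and of AP2 alone (522, 636 and 515). The library labelled replicate 1, at 320, was close to wild-type replicate 3, at 343. It also held fewer counts in total (15966593 against 17504229), so the order of these 2 libraries depends on the scaling. These 2 transcripts held only part of the gene's estimated counts, which were 637, 766 and 1877 in co-injected libraries and 1837, 1033 and 1145 in kctd15 libraries. At the gene level kctd15a did not separate the groups, at 41.3, 44.9 and 118 CPM in co-injected libraries, 112, 52.0 and 63.3 CPM in kctd15 libraries and 56.8, 50.7 and 39.7 CPM in wild type.

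**Figure D1:**
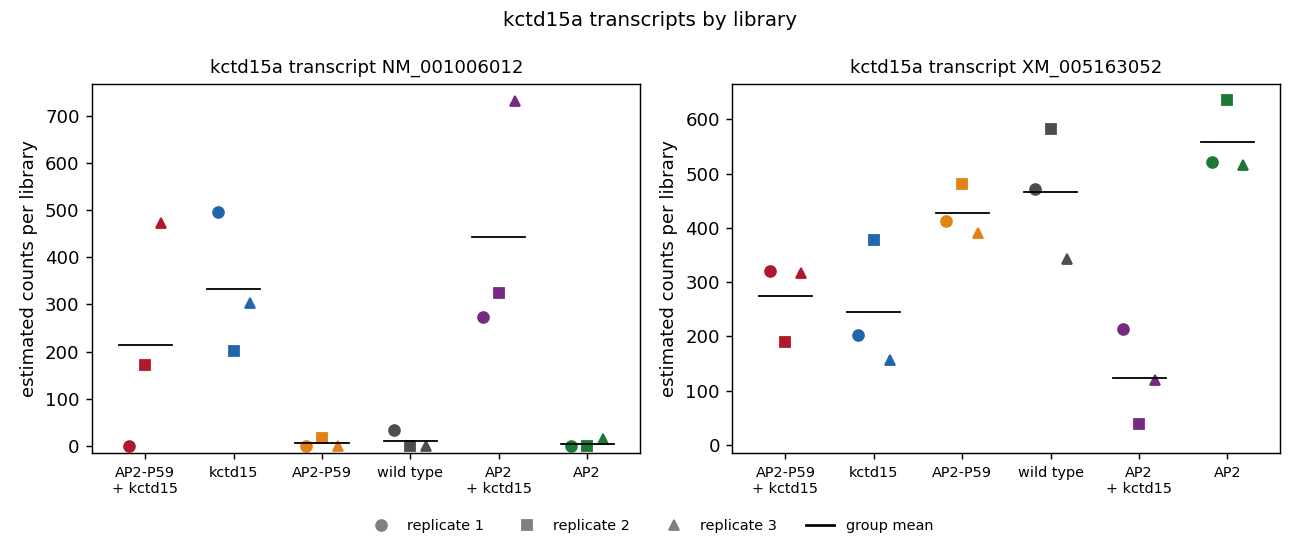
Estimated counts of the kctd15a transcripts NM_001006012 (left) and XM_005163052 (right) in each library of the 6 embryo groups, with marker shape for the replicate number and a bar for the group mean. On the left, the library labelled AP2-P59 + kctd15 replicate 1 is at 0 while its 2 fellow libraries are at 171 and 473.

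No single gene was called between the co-injected and the kctd15-only embryos in the main fit. Of 22097 genes tested, 0 (0%) passed an adjusted p under 0.05 in edgeR's quasi-likelihood test with the replicate number as a block, and the smallest adjusted p was 0.2. At an unadjusted p under 0.05 there were 1065 genes (4.82%), of which 528 were higher (2.39%) and 537 lower (2.43%) in co-injected embryos. The 3 co-injected libraries lay above all 3 kctd15 libraries in 660 genes (2.99%) and below them in 631 genes (2.86%). Without the library labelled AP2-P59 + kctd15 replicate 1, 0 genes passed, the smallest adjusted p was 0.37, and 483 genes (2.14%) were higher and 381 (1.69%) lower at an unadjusted p under 0.05. On the same counts DESeq2 called 8 genes, 6 higher and 2 lower. On the deposited normalized CPM, limma-trend called 0 with a pseudocount of 0.5 CPM and 1 (higher) with 2 CPM. The median 95% interval reached 0.3 log2 units to either side for genes of at least 5 CPM. That interval is per gene, before adjustment over all genes. Shifts well under that size were not detectable here, and larger ones could also go uncalled.

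Genes that kctd15 lowers were taken from a contrast that uses none of the 6 libraries, AP2 + kctd15 against AP2. That contrast shares with the main one the estimate of spread and the replicate block, and there 102 genes (0.462% of those tested) were lower and 15 (0.0679%) higher at an adjusted p under 0.05. In co-injected embryos against kctd15 embryos, the median log2 difference of the 102 genes was 0.23, beside 0.01 over all genes, and 91 of the 102 were above 0, beside 51.6% of all genes. None of the 102 was called. At an unadjusted p under 0.05, 19 were higher (2.39% of all genes) and 2 lower (2.43%). In 13 the 3 co-injected libraries lay above all 3 kctd15 libraries (2.99% of all genes), with 0 below (2.86%). Without the library labelled AP2-P59 + kctd15 replicate 1 the median was 0.12, and 80 of the 102 were above 0 (51.1% of all genes). At an unadjusted p under 0.05, 9 were then higher (2.14% of all genes).

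The shift was uneven over the 3 replicate pairs. The median difference of the 102 genes was 0.36 in pair 1, 0.05 in pair 2 and 0.23 in pair 3, while the medians over all genes were 0.01, -0.01 and 0.00. The library labelled AP2-P59 + kctd15 replicate 1 lay above all 3 kctd15 libraries in 80 of the 102 genes (26% of all genes), replicate 2 in 28 (27.8% of all genes) and replicate 3 in 40 (21% of all genes). For replicate 2 that share is close to the one over all genes, while for replicate 3 it is higher.

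Set against wild-type embryos with no injection named, most of the 102 genes were at lower levels with or without AP2-P59. Their median log2 difference from wild type was -0.34 in co-injected embryos and -0.60 in kctd15 embryos. Below 0 were 91 of 102 genes in co-injected embryos (48.7% of all genes) and 98 in kctd15 embryos (50.7% of all genes). At an unadjusted p under 0.05, 44 were lower than wild type in co-injected embryos (3.14% of all genes) and 70 in kctd15 embryos (3.03%), and the groups did not overlap in 27 (2.83%) and 60 (3.61%). Neither contrast called any gene over the whole table (0% in both), with 1469 (6.65%) and 1392 (6.3%) at an unadjusted p under 0.05, while DESeq2 called 13 in co-injected embryos against wild type. Without the library labelled AP2-P59 + kctd15 replicate 1, the co-injected median was -0.43, with 51 genes lower at an unadjusted p under 0.05 (2.81% of all genes). These contrasts share the wild-type libraries with each other and an injected group with the main comparison, so their values are not independent.

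Library by library, the median of the 102 genes relative to the wild-type mean was -0.08, -0.53 and -0.42 in co-injected embryos, -0.47, -0.61 and -0.63 in kctd15 embryos, 0.35, 0.10 and 0.02 after AP2-P59 alone, and 0.15, -0.10 and -0.05 in wild type. Co-injected replicates 2 and 3 lay below all AP2-P59 and wild-type libraries, and replicate 2 lay within the kctd15 range. Replicate 1 was the highest library in each of the 4 groups. The 95% interval lay wholly below wild type for 44 of the 102 genes in co-injected embryos, and wholly above kctd15 embryos for 19. Both held for 4 genes: far1, mmp30, si:dkeyp-67a8.4 and the crest regulator sox9b. These 4 are named because the count is small, after their values were seen. The share of all genes meeting both conditions was not computed, and both contrasts use the co-injected libraries. Without the library labelled replicate 1, the interval of sox9b against kctd15 embryos was -0.21 to 0.83. Mmp30, a matrix metalloproteinase gene, was at 53.1, 40.0 and 62.5 CPM in co-injected libraries, 41.8, 28.8 and 36.7 CPM in kctd15 libraries and 85.1, 59.9 and 64.8 CPM in wild type. Its log2 difference from kctd15 embryos was 0.55 (0.22 to 0.88), and 0.66 (0.30 to 1.02) without the library labelled replicate 1. The 15 genes higher in AP2 + kctd15 than in AP2 had a median of -0.05, with 7 above and 8 below 0.

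**Figure D2:**
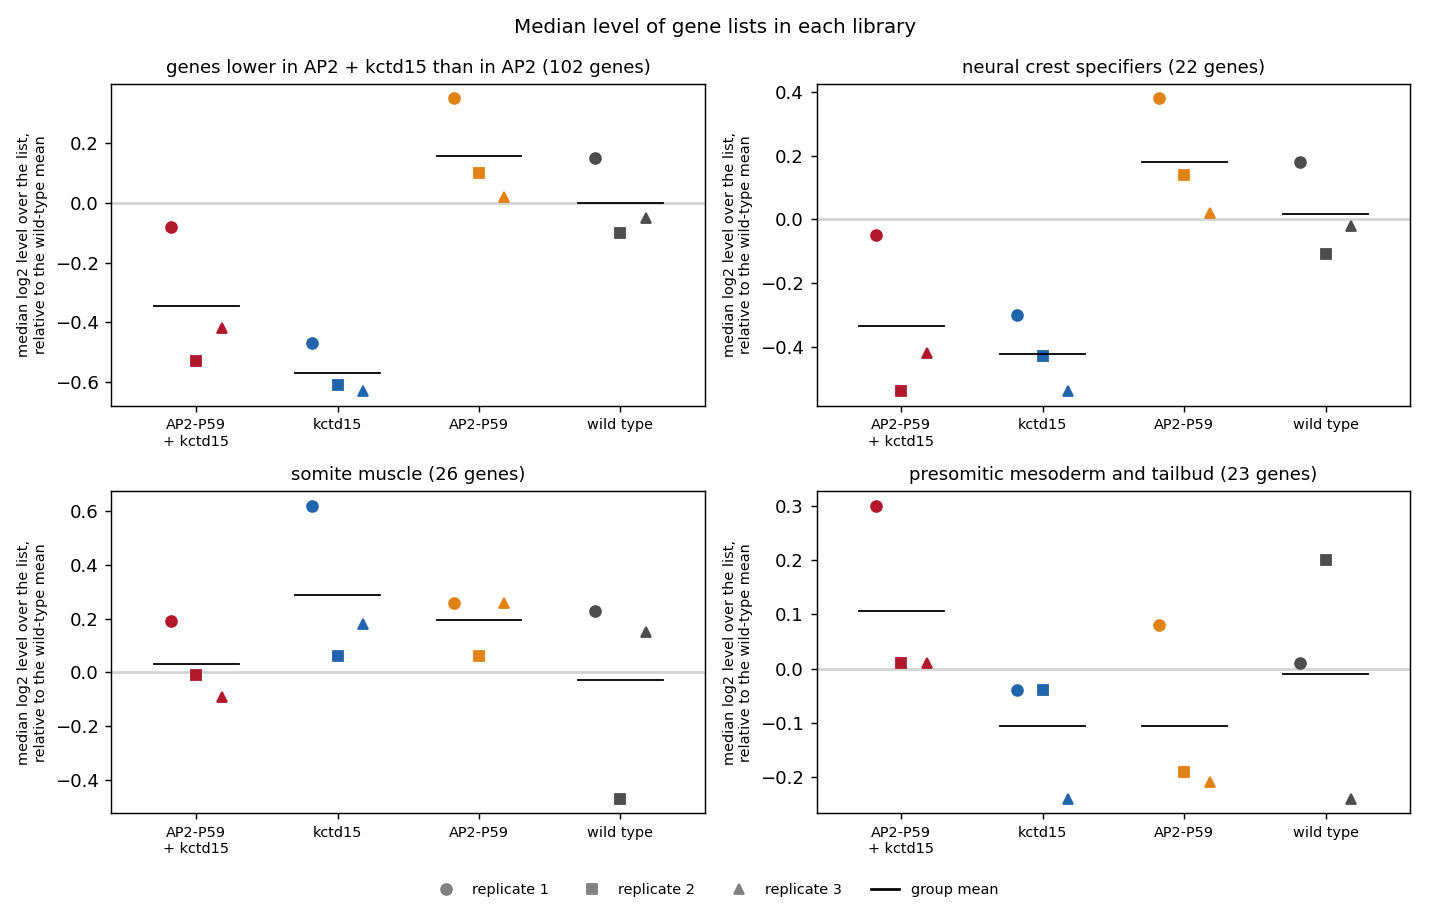
Median log2 level of 4 gene lists in each library relative to the wild-type mean, by group, with marker shape for the replicate number and a bar for the mean of the 3 libraries. The 102 genes lower in AP2 + kctd15 than in AP2 sit at -0.08, -0.53 and -0.42 in co-injected libraries and at -0.47, -0.61 and -0.63 in kctd15 libraries.

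Among the 10 genes lowest in AP2 + kctd15 against AP2, krt17 and krt92 encode keratins of the skin. Krt17 was at 559, 109 and 191 CPM in co-injected libraries, 142, 213 and 89.1 CPM in kctd15 libraries and 741, 622 and 523 CPM in wild type. Its log2 difference between co-injected and kctd15 embryos was 0.78 (95% interval -0.35 to 1.91), and 0.14 without the library labelled replicate 1. That library stood apart at 559 CPM, and the other co-injected libraries overlapped those of kctd15. Krt92 again had the library labelled replicate 1 highest, at 850, 213 and 512 CPM against 452, 387 and 291 CPM, with a log2 difference of 0.36 (-0.28 to 0.99), and 0.05 without that library. Reads of related keratins may be split between copies by the transcript assignment, so both levels are uncertain.

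Scinla, a gene of the gelsolin family of actin-binding proteins, was at 14.6, 13.4 and 12.4 CPM in co-injected libraries, 12.5, 13.9 and 12.6 CPM in kctd15 libraries and 19.8, 18.9 and 23.9 CPM in wild type. Both injected groups lay below every wild-type library, and the log2 difference between them was 0.05 (-0.30 to 0.41). Kctd1, which encodes the closest relative of Kctd15, was at 8.56, 2.17 and 5.95 CPM in co-injected libraries, 4.28, 2.97 and 3.48 CPM in kctd15 libraries and 7.36, 8.88 and 6.62 CPM in wild type. Its log2 difference was 0.56 (-0.14 to 1.25), with the libraries overlapping. Of the others, the extracellular matrix genes ogn and col16a1, the secreted kinase gene fam20cb and the homeobox gene alx1 had log2 differences of 0.24, -0.10, -0.06 and 0.29, and sox10 and fam212aa are given with the crest genes.

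Neural crest genes were on balance slightly higher with AP2-P59, and no single one was called. Of 24 genes listed, 22 were tested, and their median log2 difference was 0.14, with 17 above and 5 below 0. At an unadjusted p under 0.05 there were 3 higher (sox9b, twist1b and tfap2a, beside 2.39% of all genes) and 0 lower, and without the library labelled AP2-P59 + kctd15 replicate 1 the median was 0.05 with 0 such genes. By pair the medians were 0.29, -0.03 and 0.14. Against wild type the list's median was -0.31 in co-injected embryos, -0.50 without that library, and -0.40 in kctd15 embryos.

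Crestin, a transcript that marks zebrafish premigratory and migrating crest, was at 88.7, 50.1 and 73.6 CPM in co-injected libraries, 68.5, 51.2 and 69.2 CPM in kctd15 libraries, 208, 113 and 138 CPM after AP2-P59 alone and 147, 119 and 155 CPM in wild type. The co-injected and kctd15 libraries overlapped, and all 6 lay below every AP2-P59 and wild-type library. The log2 difference was 0.15 (SE 0.19, 95% interval -0.25 to 0.55, adjusted p = 0.99) against kctd15 embryos and -1.01 (-1.41 to -0.62, adjusted p = 0.26) against wild type, a contrast in which DESeq2 called crestin (-1.02, adjusted p = 0.00017). Kctd15 embryos themselves were at -1.16 against wild type (adjusted p = 0.055). Pdgfra, a receptor carried by crest and its mesenchymal derivatives, was at 63.9, 53.3 and 61.5 CPM, 57.9, 55.0 and 49.3 CPM, and 79.5, 74.0 and 74.9 CPM in the co-injected, kctd15 and wild-type libraries, so both injected groups again lay below every wild-type library.

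Sox10, the SoxE factor of crest, glia and pigment cells, was at 38.8, 12.7 and 21 CPM in co-injected libraries, 20.4, 11.8 and 11.1 CPM in kctd15 libraries and 46.6, 37.3 and 42.6 CPM in wild type. Within pairs sox10 was higher by a log2 of 0.91, 0.09 and 0.89 in co-injected embryos, and every co-injected library lay below its own wild-type partner. Replicate 1 was the highest library in each of these groups. The log2 difference was 0.67 (SE 0.36, -0.12 to 1.45) against kctd15 embryos, 0.40 without the library labelled replicate 1, and -0.93 (-1.69 to -0.16) against wild type. Foxd3, a forkhead factor of crest progenitors, was at 40.5, 13.4 and 22.0 CPM in co-injected libraries, 20.2, 14.3 and 14.4 CPM in kctd15 libraries and 37.8, 31.8 and 24.3 CPM in wild type. Its difference was 0.55 (-0.05 to 1.15), and 0.33 without the library labelled replicate 1.

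Snai1b, a repressor of the crest's epithelial state, was at 77.3, 41.7 and 57.6 CPM in co-injected libraries, 53, 45.7 and 42.2 CPM in kctd15 libraries and 94.4, 71.9 and 80.7 CPM in wild type. Its log2 difference was 0.31 (-0.07 to 0.69), and 0.13 without the library labelled replicate 1. Twist1b, a basic helix-loop-helix factor of crest mesenchyme, was at 9.66, 3.46 and 5.07 CPM against 4.89, 2.72 and 3.93 CPM. The groups overlapped, and its difference was 0.60 (0.16 to 1.05, adjusted p = 0.99), and 0.32 (-0.12 to 0.77) without that library. Sox9b had 0.50 (0.02 to 0.98) and 0.31 (-0.21 to 0.83). Snai2 was the 1 crest gene whose 3 co-injected libraries, at 92.8, 76.3 and 71.4 CPM, lay above all kctd15 libraries, at 69.4, 69.2 and 59.7 CPM, and 2.99% of all genes had that order. Tfec, a factor of pigment cell precursors, was the 1 crest gene with the opposite order, at 1.36, 1.35 and 1.57 CPM against 1.65, 1.71 and 1.94 CPM, and 2.86% of all genes had it. Counts of 1 in 22 in each direction are near those shares. Sox9a, ets1 and fam212aa had log2 differences of -0.31, -0.09 and 0.15.

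**Figure D3:**
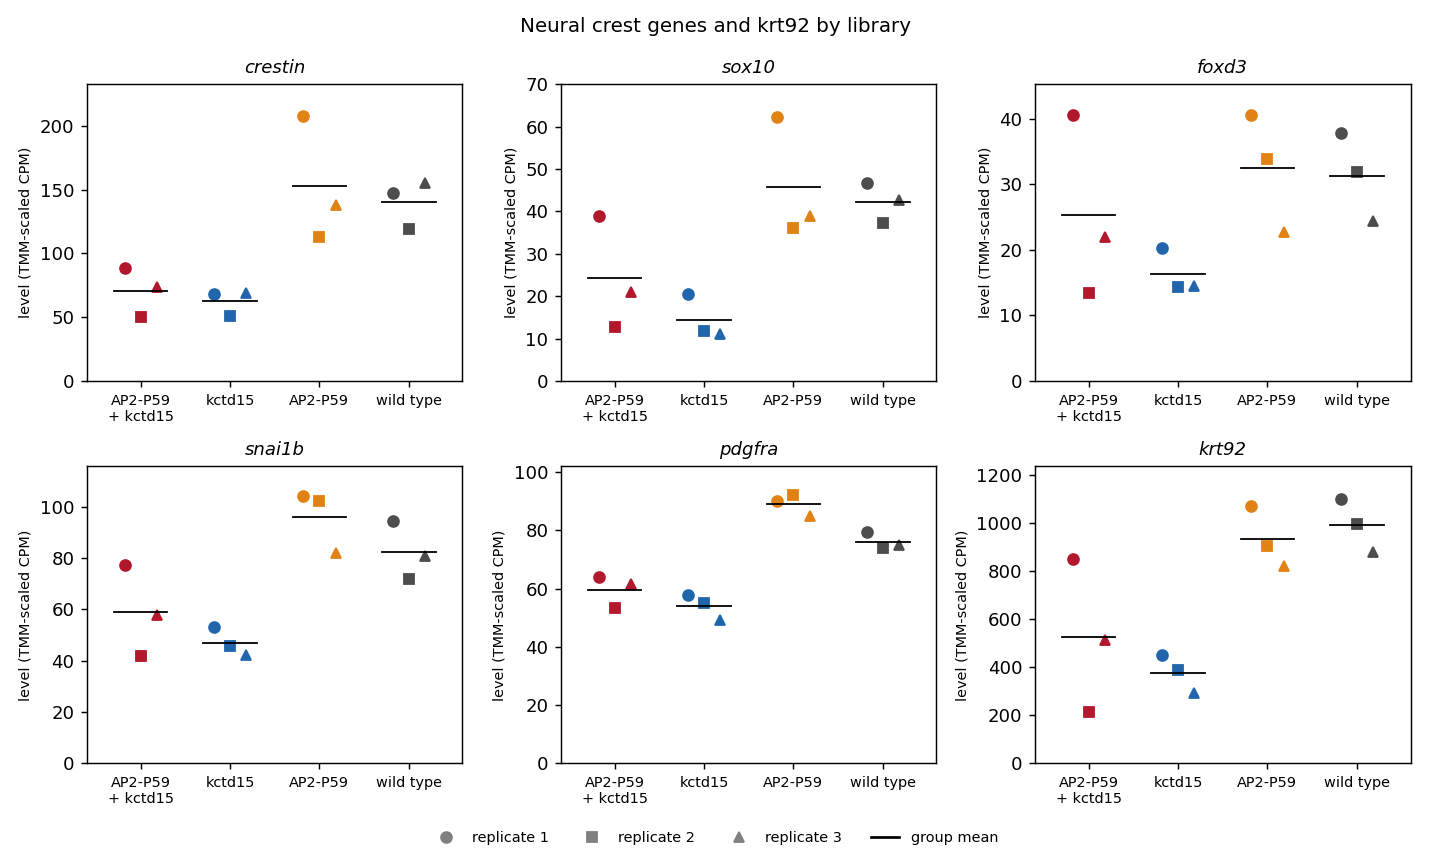
Levels (TMM-scaled CPM) of crestin, sox10, foxd3, snai1b, pdgfra and krt92 in each library of 4 groups, with marker shape for the replicate number and a bar for the group mean. In all 6 panels the library labelled AP2-P59 + kctd15 replicate 1 is the highest of the 6 libraries labelled as carrying kctd15.

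None of the AP2 genes or kctd15b was called. Tfap2a, the AP2 gene of crest and epidermis, was at 201, 150 and 142 CPM in co-injected libraries, 159, 142 and 114 CPM in kctd15 libraries and 203, 172 and 137 CPM in wild type, with a log2 difference of 0.25 (0.00 to 0.50). Without the library labelled replicate 1 it was 0.20 (-0.07 to 0.48). Tfap2c had 0.12. Tfap2b was at 2.72, 2.29 and 2.94 CPM in co-injected libraries against 3.06, 4.13 and 3.87 CPM in kctd15 libraries, without overlap, a difference of -0.49 (-1.24 to 0.26). Tfap2d and tfap2e were too low to test. None of these counts separates injected from embryonic AP2 RNA. Kctd15b was at 3.24, 1.47 and 2.82 CPM in co-injected libraries, 1.47, 2.11 and 0.774 CPM in kctd15 libraries and 4.31, 3.97 and 3.73 CPM in wild type. All co-injected and kctd15 libraries lay below every wild-type library, and the difference between these 2 injected groups was 0.80 (-0.06 to 1.66). After AP2-P59 alone kctd15b was not lower, at 97, 117 and 67 estimated counts against 65, 71 and 66 in wild type.

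Skin, border and placode lists had positive medians, and none of their genes was called. Of 29 epidermal and periderm genes tested the median log2 difference was 0.06, with 20 above and 9 below 0. By pair their medians were 0.1, -0.24 and 0.13, so pair 2 had the opposite sign. The median was 0.04 without the library labelled AP2-P59 + kctd15 replicate 1. Tp63, the regulator of basal skin cells, was at 118, 92.5 and 90 CPM in co-injected libraries against 89.6, 75.7 and 69.1 CPM in kctd15 libraries, and was the 1 of 29 epidermal genes without overlap, a share near the 2.99% of all genes with that order. Its difference was 0.35 (-0.05 to 0.76), and 0.35 without that library. The envelope gene tgm1l4, a transglutaminase, was at 86.4, 11.1 and 18.2 CPM against 17.3, 18.1 and 9.07 CPM, so its difference of 1.01 (-0.29 to 2.31) was 0.17 without that library. Icn, an epidermal calcium-binding protein gene, was at 19.4, 42.2 and 54.2 CPM against 50.8, 60.7 and 72.4 CPM. Its difference was -0.74 (-1.27 to -0.22), and wild type was at 24.1, 39.7 and 36.9 CPM.

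Neural plate border genes had a median of 0.11 over 19 genes, with 15 above 0, beside 17 of 22 and a median of 0.14 for crest genes. Without the library labelled replicate 1 the border median was 0.04, and a difference between the border and crest lists was not tested. Msx3, a homeobox factor of the border, was at 42.3, 28.8 and 28.8 CPM in co-injected libraries against 28.4, 23.7 and 25.6 CPM in kctd15 libraries, with no overlap, 1 of 19 border genes in that order (2.99% of all genes). The 18 placode genes had a median of 0.10, and -0.01 without that library. Pair medians were 0.19, 0.02 and 0.11 for border genes and 0.3, -0.08 and 0.14 for placode genes. Cldna, an adhesion gene of the claudin family, was at 34.0, 31.4 and 24 CPM in co-injected libraries, 20.9, 23.8 and 19.1 CPM in kctd15 libraries and 28.5, 41.4 and 33.2 CPM in wild type. It is one of the 102 genes lowered in AP2 + kctd15, its injected groups did not overlap, and its difference was 0.49 (0.11 to 0.86). Of the same 102, frem2a, a basement membrane protein gene, was at 22.9, 18.5 and 19.3 CPM, 11.1, 15.3 and 11.7 CPM, and 24.2, 32.1 and 26.2 CPM in co-injected, kctd15 and wild-type libraries. Co-injected frem2a thus lay between the other groups without overlap on either side. Frem2a was named after its values were seen.

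Away from the crest, somite muscle genes were lower with AP2-P59 than with kctd15 alone. Over 26 genes tested the median log2 difference was -0.33, with 22 below and 4 above 0 (48.4% of all genes were below 0), and -0.34 without the library labelled AP2-P59 + kctd15 replicate 1. At an unadjusted p under 0.05, 6 were lower (2.43% of all genes) and 0 higher (2.39%), and none was called. Pair medians were -0.41, -0.11 and -0.32. Relative to wild type, the list's median was 0.02 in co-injected embryos and 0.35 in kctd15 embryos. Relative to the wild-type mean, the list's median was 0.19, -0.01 and -0.09 in co-injected libraries, 0.62, 0.06 and 0.18 in kctd15 libraries and 0.23, -0.47 and 0.15 in wild type. Of the 6 injected libraries, kctd15 replicate 1 was the only one outside the wild-type spread.

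Myog, the myogenic factor of differentiating muscle, was at 9.85, 12.5 and 8.89 CPM in co-injected libraries, 22.4, 16.1 and 18.6 CPM in kctd15 libraries and 11.2, 7.49 and 14.8 CPM in wild type. All co-injected libraries lay below all kctd15 libraries and within the wild-type range. The lower order held in 5 of 26 muscle genes tested (2.86% of all genes), and a rule that named myog requires it. The log2 difference was -0.85 (SE 0.21, -1.28 to -0.41, adjusted p = 0.72), and -0.75 without the library labelled replicate 1. Mylpfa, a fast-muscle myosin light chain, was at 2.2, 1.82 and 2.07 CPM in co-injected libraries, 6.12, 3.22 and 5.36 CPM in kctd15 libraries and 2.59, 1.62 and 3.45 CPM in wild type. Its difference was -1.24 (-1.80 to -0.67, adjusted p = 0.61), and -1.26 without that library. Of the regulators upstream of myog, myod1 and myf5 had -0.13 and 0.22.

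Vgll2b, a cofactor of TEAD factors from the family that acts in skeletal muscle, had the smallest p among named lower genes. It was at 5.90, 4.04 and 6.57 CPM in co-injected libraries, 20.2, 10.7 and 16.9 CPM in kctd15 libraries and 12.4, 2.46 and 12 CPM in wild type. The injected groups did not overlap, which the rule that named vgll2b requires, and the difference was -1.52 (SE 0.29, -2.15 to -0.90, adjusted p = 0.41). DESeq2 gave -1.53 with an adjusted p of 0.001, and a fit of the 6 libraries alone gave -1.51 with an adjusted p of 0.044. Without the library labelled replicate 1 the difference was -1.38 (-2.13 to -0.64).

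**Figure D4:**
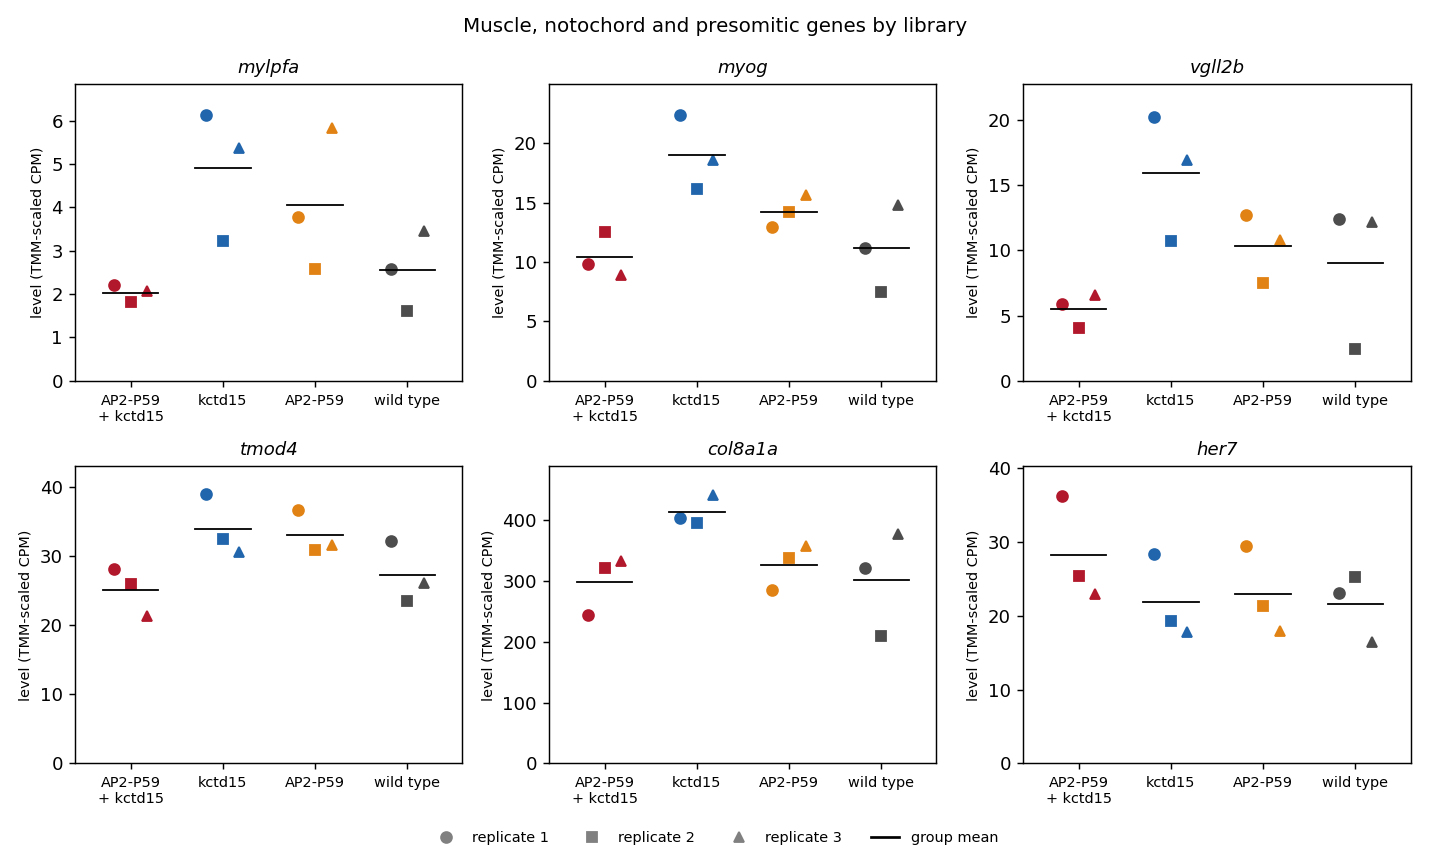
Levels (TMM-scaled CPM) of mylpfa, myog, vgll2b, tmod4, col8a1a and her7 in each library of 4 groups, with marker shape for the replicate number and a bar for the group mean. In mylpfa, myog, vgll2b, tmod4 and col8a1a all 3 co-injected libraries lie below all 3 kctd15 libraries, and in her7 the groups overlap. Vgll2b, myog and tmod4 were chosen by a rule that requires this lack of overlap, and mylpfa and col8a1a by a small p within their lists. Of all genes, 2.86% had that order.

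Notochord genes were on balance lower, with a median of -0.14 over 15 genes, 12 below 0, and 5 lower at an unadjusted p under 0.05 (2.43% of all genes). The median was -0.11 without the library labelled replicate 1, and the pair medians were -0.2, -0.26 and -0.03. These 5 were collagen or sheath genes: col2a1a, col8a1a, col9a1b, col9a2 and cmn. A further collagen gene of the list, col27a1a, was not lower, at 0.10 (-0.28 to 0.48). Of the other members, noto, ta, foxa3 and foxj1a had 0.15, -0.03, -0.01 and -0.05, and shha and cav1 had -0.23 and -0.39. Col8a1a was at 243, 320 and 332 CPM in co-injected libraries, 402, 394 and 440 CPM in kctd15 libraries and 320, 209 and 376 CPM in wild type, a difference of -0.47 (-0.78 to -0.16). Blood and vessel genes had a median of -0.19 over 24 genes, 19 of them below 0, and -0.12 without the library labelled replicate 1. The pair medians were -0.31, -0.03 and -0.13. Draculin (drl), a zinc-finger gene of early blood, was at 8.88, 8.67 and 5.38 CPM against 11.3, 11.1 and 11.1 CPM, a difference of -0.56 (-1.0 to -0.11).

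Presomitic and tailbud genes, the progenitors of those somites, had the opposite sign. Their median log2 difference was 0.19 over 23 genes, with 22 above 0, and 0.14 without the library labelled AP2-P59 + kctd15 replicate 1. By pair the medians were 0.30, 0.01 and 0.23, so pair 2 showed almost none of it. Ripply2, a repressor that ends presomitic character as somites form, was at 9.98, 8.56 and 7.39 CPM in co-injected libraries against 7.16, 6.04 and 5.58 CPM in kctd15 libraries, a difference of 0.46 (0.13 to 0.80). Her7, a clock gene of segmentation, was at 36.3, 25.4 and 23.0 CPM against 28.4, 19.3 and 17.8 CPM, a difference of 0.37 (0.10 to 0.64). Relative to the wild-type mean, the list's median was 0.3, 0.01 and 0.01 in co-injected libraries and -0.04, -0.04 and -0.24 in kctd15 libraries. In wild type it was 0.01, 0.2 and -0.24, so only co-injected replicate 1 lay above the wild-type libraries. In pairs 1 and 3 the presomitic list was thus higher and the muscle list lower in co-injected embryos. How closely the groups were matched in stage was not tested.

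The genes with the smallest p that did not overlap, had at least 5 CPM and carried a gene name are given as values only. On the higher side they were uacaa (log2 0.45), pdk3a (0.59), ldlra (0.64), hand2 (0.41), akt1s1 (0.27), stmn3 (0.86), gdpd2 (0.65) and rhbdl2 (0.59). Hand2, a factor of heart and limb-bud mesoderm, was at 34.6, 29.2 and 32.4 CPM in co-injected libraries, 24.6, 25.2 and 22.8 CPM in kctd15 libraries and 24.9, 29.0 and 24.6 CPM in wild type, and lay above both. Gdpd2, a phosphodiesterase gene that is also one of the 102, was at 8.30, 7.15 and 8.51 CPM in co-injected libraries, 5.26, 4.53 and 5.47 CPM in kctd15 libraries and 7.29, 5.36 and 6.39 CPM in wild type, and kept 0.67 without the library labelled replicate 1. On the lower side, beside vgll2b and myog, they were pabpc4 (-1.07), tmed1a (-0.54), tmod4 (-0.43), tsc22d1 (-0.31), loxl1 (-0.57) and ctslb (-0.36). Tmod4 caps the thin filaments of muscle, and pabpc4, whose product binds poly(A) tails, was the other named gene that DESeq2 called (-1.08, adjusted p = 0.026). Ctslb, a protease gene of the hatching gland, was at 626, 595 and 575 CPM against 782, 744 and 783 CPM. All 16 had the same sign without the library labelled replicate 1. Their choice by lack of overlap largely fixed that sign, so it is no check on them.

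**Figure D5:**
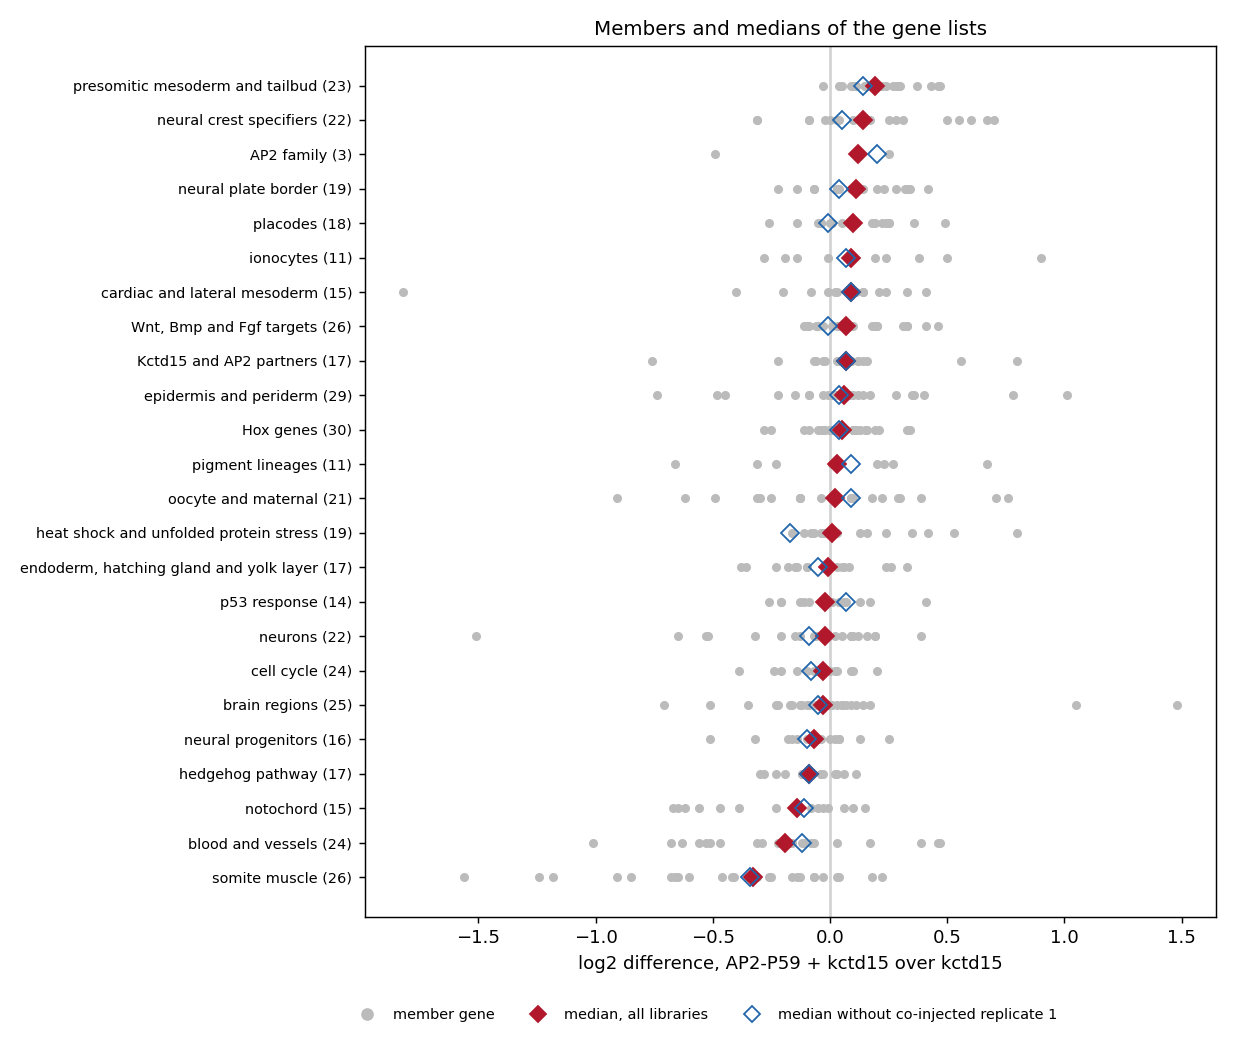
Log2 difference of AP2-P59 + kctd15 over kctd15 for each tested gene of 24 lists (grey points, number of genes in brackets), with the list's median over all libraries (filled diamonds) and without co-injected replicate 1 (open diamonds). Medians run from -0.33 for somite muscle to 0.19 for presomitic mesoderm and tailbud.

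The remaining lists had medians near 0. Neural progenitor genes had -0.07 over 16 genes and neuronal genes -0.02 over 22. In 3 of the 22 neuronal genes all co-injected libraries lay below all kctd15 libraries (2.86% of all genes), and in 0 above. Pax6a, a homeobox factor of the forebrain and neural tube, was at 67.5, 64.5 and 51.0 CPM in co-injected libraries against 78.5, 74.2 and 73.9 CPM in kctd15 libraries, the 1 of 16 progenitor genes without overlap (2.86% of all genes). Hedgehog pathway genes had -0.09, with 13 of 17 below 0, and Hox genes 0.05, with 21 of 30 above 0. Cell cycle genes had -0.03 over 24 genes and p53 response genes -0.02 over 14. The p53 target sesn3 was at 134, 151 and 179 CPM against 113, 116 and 117 CPM, the 1 of 14 p53 response genes without overlap, where 2.99% of all genes had that order. Heat shock genes had 0.01 over 19 genes, and -0.17 without the library labelled AP2-P59 + kctd15 replicate 1, with pair medians of 0.36, -0.26 and -0.09. That library was thus the only co-injected one whose pair was positive for stress genes. Among 15 cardiac genes, with a median of 0.09, the ventricular myosin gene vmhc was at 0.648, 1.41 and 0.689 CPM against 4.22, 2.11 and 3.65 CPM, a log2 difference of -1.82 (-2.96 to -0.68). Oocyte and maternal genes, ionocyte genes, brain region genes and pigment genes had 0.02, 0.09, -0.03 and 0.03.

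Whether AP2-P59 acted differently with kctd15 than without it was tested as the difference between co-injected minus kctd15 and AP2-P59 minus wild type. It called 0 genes (0%, smallest adjusted p 0.05), with 1976 at an unadjusted p under 0.05 (8.94%), while DESeq2 called 17 and limma-trend 0. The wild type is not named as injected, so injection itself cannot be told apart from AP2-P59 in the contrast without kctd15. Over the 102 genes its median was 0.08 with 57 above and 45 below 0, and -0.01 without the library labelled AP2-P59 + kctd15 replicate 1. Over the crest list it was 0.07, and -0.06 without that library. Over somite muscle it was -0.53, with 12 of 26 genes lower at an unadjusted p under 0.05 (4.85% of all genes). Without that library the muscle median was -0.54, with 8 of 26 lower (895 of the 22097 genes). Other lists were also shifted. Heat shock genes had -0.46 with 5 of 19 lower and 1 higher, and -0.55 with 10 of 19 lower without that library. After AP2-P59 alone against wild type, heat shock genes had a median of 0.46. For the difference, blood, notochord and neuronal genes had -0.37, -0.24 and -0.22, with 7 of 24, 5 of 15 and 5 of 22 lower. Presomitic genes had 0.32, with 22 of 23 above 0. The difference also uses wild-type replicate 2, which was low on the muscle list (-0.47, beside 0.23 and 0.15 in replicates 1 and 3).

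AP2-P59 with kctd15 and AP2 with kctd15 differed in 1 called gene (0.00453%), with 1628 at an unadjusted p under 0.05 (7.37%). Calls numbered 0 without the replicate block, 0 without AP2 + kctd15 replicate 2, 3 without co-injected replicate 2, 20 without AP2 + kctd15 replicate 3 and 52 with DESeq2. The called gene, LOC103908732, falls outside the naming rule because it has no gene name, and was higher by a log2 of 1.98 (SE 0.22, edgeR adjusted p = 0.0026). It was at 22.6, 19.5 and 9.70 CPM in co-injected libraries against 7.89, 6.65 and 6.19 CPM in kctd15 libraries, and 6.63, 7.21 and 5.60 CPM in wild type. Against kctd15 embryos its log2 difference was 1.27 (0.82 to 1.72, adjusted p = 0.2), while DESeq2 called it (1.27, adjusted p = 0.00053), as did edgeR without co-injected replicate 3 (1.5, adjusted p = 0.045). AP2 + kctd15 libraries chose the 102 genes, so their values are not compared over that list.

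With AP2-P59 held constant, adding kctd15 gave 2 called genes (0.00905%), both lower and both among the 102. LOC560650 was at 5.06, 2.23 and 3.88 CPM in co-injected libraries against 19.5, 11.5 and 9.06 CPM after AP2-P59 alone, a log2 difference of -1.86 (SE 0.23, edgeR adjusted p = 0.0068). LOC103910711 was at 48.0, 17.6 and 23.0 CPM against 105, 38.3 and 43.8 CPM, a difference of -1.06 (SE 0.14, edgeR adjusted p = 0.01). Both were named after their values were seen, and their adjusted p was 0.078 and 0.065 without the library labelled AP2-P59 + kctd15 replicate 1. Over the 102 genes the median of this contrast was -0.49, with 64 lower at an unadjusted p under 0.05 (4.48% of all genes).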

How the data were processed

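The authors deposited estimated counts per gene and per transcript and a table of normalized CPM, a signal per gene. Per the submitters' processing notes the tools included Trimmomatic 0.36, kallisto 0.43.0 and edgeR, with build GRCz10. Per the labels' protocols, libraries were stranded and made from polyadenylated RNA. Here the deposited gene estimates were rounded and tested with edgeR 4.0.16 (R 4.3.3). Genes passing filterByExpr (minimum count 10, total 15) were scaled by TMM, and 18 embryo libraries were fitted by group plus replicate number, with Benjamini-Hochberg adjustment over 22097 genes. Counts per library ran from 15152199 to 19786714. Deviations from group means correlated at 0.46, 0.54 and 0.48 across genes between co-injected and kctd15 libraries of the same number, so the numbers were taken as pairs. A gene was called at an adjusted p under 0.05, and intervals are 95%. Nothing states that replicates were separate clutches, so p-values measure only the spread between these libraries. DESeq2 1.42.0, limma 3.58.1 on the deposited normalized CPM, other filters, scalings and sample sets were alternatives. The script was tested on simulated data. Named genes were the kctd15 and AP2 genes, 11 crest genes, the 8 named genes with the smallest p each way without overlap at 5 CPM or more, the 10 lowest in AP2 + kctd15 against AP2, and up to 2 with the smallest p of each list. The members, lists and rules were chosen with earlier results of these data known. The reference tables are of another build, so no genome positions are given.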

Additional observations from a re-analysis of the deposited data

Results flagged for a closer look

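The kctd15a transcript NM_001006012 averaged 332 estimated counts after kctd15 alone and 11.4 in wild type, in a transcript table that the gene comparisons do not use. In the co-injected group it averaged 214 estimated counts, and 322 without the library labelled AP2-P59 + kctd15 replicate 1, where it was listed at 0. Whether that library received kctd15 was not tested.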

How the results depend on the processing

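The direction of the median over the genes lower in AP2 + kctd15 than in AP2 was positive in every alternative run, and it ranged from 0.13 to 0.32 when 1 library was left out and the list chosen again, at 18 to 252 genes over all alternatives (0.13 without the library labelled AP2-P59 + kctd15 replicate 1). Without that library and without the replicate block it was 0.05, and the crest median was -0.01. Without the replicate block alone, co-injected against kctd15 embryos gave 0 called genes and 470 at an unadjusted p under 0.05, against 1065 with it, the medians were 0.23 for the 19 genes then lowered and 0.15 for crest, and the contrast with AP2 + kctd15 called 0. The number of genes called in co-injected against kctd15 embryos was 8 with DESeq2 (6 higher, 2 lower), 4 with the 6 libraries alone (3 higher, 1 lower), 1 (higher) with no filter and 1 (higher) with limma-trend and a pseudocount of 2 CPM, and 0 to 1 (higher 0 to 1, lower 0) when 1 library was left out. The difference of the AP2-P59 effect with and without kctd15 gave 1 gene with 21 libraries, 1 with DESeq2's size factors in edgeR, 1 with no filter, 17 with DESeq2, and 0 to 2 leaving out 1 library. Against AP2 + kctd15, DESeq2 called 52 genes, and leaving out 1 library gave 0 to 20, with 20 without AP2 + kctd15 replicate 3, 0 without its replicate 2 and 3 without co-injected replicate 2. Against wild type, DESeq2 called 13 genes, no filter 3, limma-trend 2 (0.5 CPM) and 3 (2 CPM), and leaving out 1 library of the compared groups 0 to 1. Runs that left out a library of another group are not in that range. The crest median ranged from 0.05 to 0.26 when 1 library was left out. Of 80 named genes, 78 were called in no alternative of the main comparison. The causes were not tested. At this depth and spread the median 95% interval reached 0.4 log2 units to either side for the lowered genes and 0.451 for crest genes.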

Other observations

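LOC103909251, named after its values were seen, was at 14.1 CPM in co-injected replicate 2 and 14.5 CPM in wild-type replicate 2, with 12.6 and 27 CPM in replicate 2 of AP2 + kctd15 and of AP2. It was listed at 0 in every replicate 1 and 3 of the 6 embryo groups and in all kctd15 and AP2-P59 libraries. It had the smallest unadjusted p of the main comparison (adjusted p = 0.2), with counts in 1 of the 6 libraries. LOC103908732, with the same adjusted p to 1 digit, was higher in all 3 co-injected libraries.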
